A study of Mus musculus with 8 samples.

Results

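The clustered replication histone genes are the genes that encode the bulk of chromatin's histone protein, arranged in groups along the mouse chromosomes. They were taken here as every row of the count table whose Ensembl identifier carries a mouse symbol beginning with Hist1h to Hist4h. This gave 70 of 54838 genes. The Hist1 cluster on chromosome 13 held 56 of them, the Hist2 cluster on chromosome 3 held 10, the Hist3 cluster on chromosome 11 held 3, and Hist4, on chromosome 6, was a single gene. By product, 6 encode the linker histone H1, 20 encode H2A, 19 encode H2B, 12 encode H3 and 13 encode H4, and 3 of the 70 are annotated as pseudogenes.

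The samples were sorted RUNX1-RUNX1T1 acute myeloid leukaemia (AML) cells of C57BL/6 background that had been transplanted into mice, with 4 samples of the Vehicle group and 4 of the AG636 group. The study describes the cells sequenced from this model as sorted for cKit, to enrich leukaemic stem cells. RUNX1-RUNX1T1 is the fusion oncoprotein of a core-binding factor leukaemia, and AG636 inhibits DHODH, an enzyme of pyrimidine synthesis. AG636 was given by mouth at 100 mg/kg b.i.d., and the treatment time is not in the labels, while the study describes a day of treatment for sorted cells of this model. All 8 samples shared the fusion and, per the labels, sub-lethally irradiated Ptprca recipients, so that no sample of untransplanted cells stands beside them. Cells came from bone marrow and spleen, and the tissue of each sample is not given. The labels do not say that each sample is a separate mouse, and the study's legend gives fewer mice per group than the 4 samples here, so the p-values measure the spread between these samples.

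Replication histone mRNAs are made in S phase, when new DNA is packaged, and they are unlike other messenger RNAs in having no poly-A tail. They end a few bases after a short stem-loop, which the stem-loop binding protein SLBP holds through processing, translation and decay. Some of these genes also carry a poly-A signal further downstream, and transcripts that run on to it receive a tail. The QuantSeq 3′ mRNA method used for the libraries starts cDNA from an oligo-dT primer and sequences next to it, so a count of such a gene reflects tailed transcripts or priming on a run of A inside the transcript, and a change in tailing cannot be told apart from a change in the amount of transcript. In a bulk sample, fewer cells that express a gene and less RNA per cell cannot be told apart either.

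The 3′ ends of the members in the GENCODE M21 annotation (GRCm38) fell into 3 kinds. For 28 genes the annotation continued for 150 to 4931 bases after the coding sequence, called a long end here. For 24 genes it stopped 37 to 114 bases after it, called a short end, and for 18 genes no more than 2 bases were annotated. The boundary was placed in the gap between 114 and 150 bases after these lengths had been seen. A stem of 6 base pairs closing a loop of 4 bases was searched for in every annotated transcript of a gene. The search required a stem opening with GG and closing with CC, and a loop opening with T. A match lay within 150 bases of the coding end in 46 genes, 24 of them with a long end and 22 with a short end. With the same required letters, a match occurred in the last 300 bases of 208 of 58128 other coding transcripts (0.358%), which is a different window.

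The stem-loop was nearly the same letters from gene to gene, in part because the search required some of them, and 8 versions covered the 46 genes. The most frequent, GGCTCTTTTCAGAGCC, was shared by 26 genes of the classes H1, H2A, H2B and H3, and 7 of the H4 genes had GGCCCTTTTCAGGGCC. The stem-loops below belong to genes on which the results turn, with the 16 bases of stem and loop in capitals, written 5′ to 3′ on the strand of the gene and with 5 bases of flank. The Hist1h1c element is at chr13:23739507-23739532 (+), that of Hist3h2a at chr11:58955167-58955192 (+), that of Hist1h4i at chr13:22040961-22040986 (-), that of Hist1h2ao at chr13:21810893-21810918 (+) and that of Hist2h2ac at chr3:96220413-96220438 (-).
Hist1h1c: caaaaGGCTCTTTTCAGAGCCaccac
Hist3h2a: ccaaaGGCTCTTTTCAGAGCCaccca
Hist1h4i: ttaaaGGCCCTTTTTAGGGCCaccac
Hist1h2ao: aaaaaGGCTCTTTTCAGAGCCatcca
Hist2h2ac: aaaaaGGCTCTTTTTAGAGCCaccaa

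A poly-A signal, AATAAA or ATTAAA, stood in the last 40 bases of the annotated transcript in 17 genes, 16 of them with a long end. The last 30 annotated bases of 3 of the genes that rose are shown with the signal in capitals, since this is where an oligo-dT primer would meet a tail. They lie at chr3:96223709-96223738 (+) for Hist2h2be, chr13:23740338-23740367 (+) for Hist1h1c and chr13:22040636-22040665 (-) for Hist1h4i. Hist1h1c and Hist1h4i had both a stem-loop and a downstream signal, while no stem-loop was found in the annotated transcript of Hist2h2be. Among the 70 genes, 14 had both elements when all annotated transcripts of a gene were pooled. In Hist1h2bp the stem-loop and the signal lie in different transcripts.
Hist2h2be: ttattattAATAAAgttaccgattagtttc
Hist1h1c: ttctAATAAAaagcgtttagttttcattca
Hist1h4i: tctgtttacATTAAAagtattctatgctaa

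Histone members made up a small part of the libraries, which held 6120030 to 7162036 counts each. Their share of all counts was 0.0915% (95% Wilson interval 0.0892 to 0.0938%) in Vehicle 3, the lowest sample, and 0.157% (0.1543 to 0.1605%) in AG636 1, the highest. The Vehicle samples ranged from 0.0915 to 0.109% and the AG636 samples from 0.129 to 0.157%, so the groups did not overlap. These intervals cover counting error only. The summed level, in counts scaled to a common library size with TMM factors (CPM), was 1033 ± 90.8 in Vehicle and 1374 ± 124 in AG636 (SD, n = 4 each). The 6 genes that rose summed to 195.1 ± 13.2 CPM in Vehicle and 437 ± 62.8 CPM in AG636, and the other 64 summed to 837.5 ± 81.9 and 937 ± 72.2 CPM, with overlap between the groups. The 6 genes were picked by their calls in these same samples, so the separation of their sum follows from the choice. No test was made on a sum over members.

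Of the 70 genes, 49 had enough counts to be tested, and 6 of them were higher in AG636 and 0 lower at an adjusted p under 0.05 (limma-voom, Benjamini-Hochberg over 10911 genes). The 6 are 12.2% of the tested members. Over all tested genes 5.47% were called higher and 8.49% lower. At an unadjusted p under 0.05 there were 8 members higher and 1 lower, and neither edgeR nor DESeq2 called any member lower. The median log2 ratio of the tested members was 0.075, beside -0.0056 for all tested genes. Of the 49, 30 lay above 0, beside 49.4% of all tested genes. In 7 members every AG636 sample was above every Vehicle sample (14.3%, beside 9.35% of all genes), and in 2, Hist1h1a and Hist1h3e, every AG636 sample was below (4.08%, beside 12.9%). The 6 that rose were Hist2h2be, Hist1h2bc, Hist1h1c, Hist3h2a, Hist1h2ao and Hist1h4i, which belong to 4 classes and 3 clusters.

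**Figure D1:**
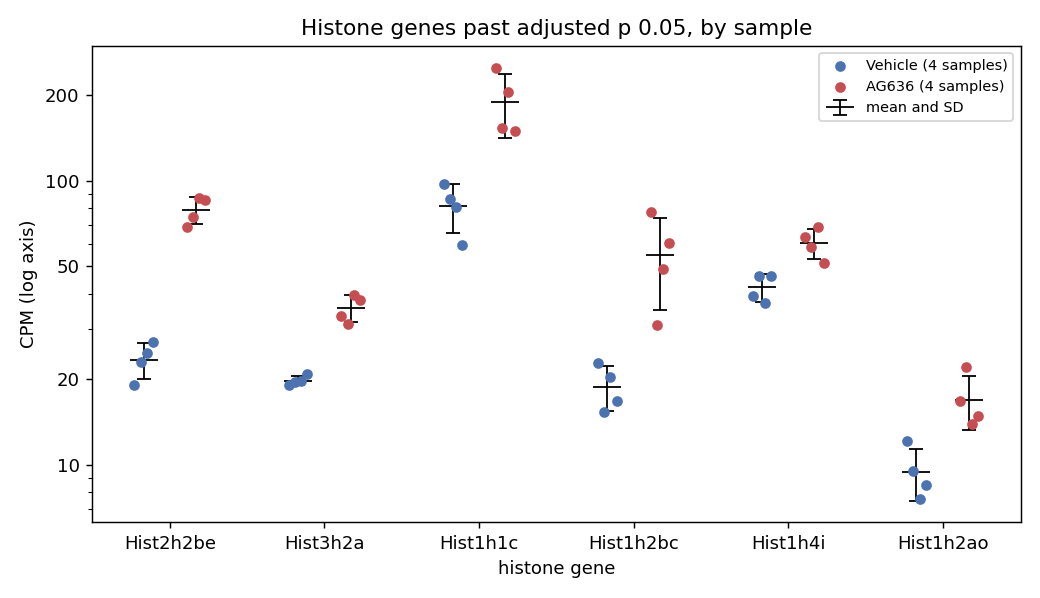
CPM (log axis) in each of the 8 samples for the 6 histone genes past an adjusted p of 0.05, with Vehicle in blue, AG636 in red, and bars for the mean and SD of 4 samples. In all 6 genes the lowest AG636 sample lies above the highest Vehicle sample, and the gap is widest for Hist2h2be.

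H1 is the linker histone that binds DNA where it enters and leaves the nucleosome. Hist1h1c, which encodes H1.2, is annotated at chromosome 13, 23738808 to 23740367, on the + strand. Its level was 97.8, 86.5, 81.2 and 59.6 CPM in Vehicle samples 1 to 4 and 250.7, 153.4, 206.5 and 149.9 CPM in AG636 samples 1 to 4. The AG636 samples were spread more widely but all were higher than any Vehicle sample. The means were 81.3 ± 15.99 and 190.1 ± 48.0 CPM (SD, n = 4), and the log2 ratio of AG636 over Vehicle was 1.21 (SE 0.19, adjusted p in limma = 0.0041).

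The other tested H1 genes did not pass. Hist1h1d, which encodes H1.3 and whose annotated end runs on for 4931 bases, was closest to the threshold. It had 13.0, 16.9, 13.3 and 11.9 CPM in Vehicle and 21.3, 16.3, 28.9 and 19.95 CPM in AG636, with 1 AG636 sample inside the Vehicle range, and a log2 ratio of 0.63 (SE 0.19, adjusted p in limma = 0.0512). It passed in edgeR (adjusted p = 0.0405) and DESeq2 (adjusted p = 0.0142), and the range over the alternatives was 0.0142 to 0.130. Hist1h1a, which encodes H1.1 and has a short end, lay on the other side. It had 10.2, 5.84, 6.04 and 5.63 CPM in Vehicle and 3.73, 5.27, 3.51 and 3.90 CPM in AG636, with no overlap, and a log2 ratio of -0.72 (SE 0.26, adjusted p in limma = 0.0893), which no alternative brought past the threshold. Hist1h1e and Hist1h1b, named here after their values were seen because they are the remaining tested H1 genes, had log2 ratios of 0.03 (95% interval -0.22 to 0.28) and -0.15 (-0.45 to 0.15). The annotated Hist1h1e overlaps Hist1h2be on the same strand, so its reads can be assigned in more than 1 way. The testis gene Hist1h1t had 8 counts in all 8 samples and was not tested.

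Summed over the 6 H1 genes, the level was 246.6 to 311.4 CPM in Vehicle and 338.2 to 460.8 CPM in AG636, without overlap. Hist1h1c gave most of the difference between the H1 means of 278.9 ± 34 and 391.4 ± 51.5 CPM.

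H2A and H2B pair as dimers on the outer part of the nucleosome core. Of 12 tested H2A genes, 2 rose. Hist3h2a, on chromosome 11 at 58954685 to 58956830 (+), was the steadiest of the 6 genes in Vehicle, where it had 19.1, 19.5, 19.8 and 20.8 CPM. It had 33.4, 31.4, 39.7 and 38.0 CPM in AG636, and its log2 ratio was 0.84 (SE 0.12, adjusted p in limma = 0.00241). Its span overlaps Trim17 on the same strand and Gm44313 on the other, and how reads in overlapping genes were counted is not given in the sources used here.

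Hist1h2ao, with a short end on chromosome 13 at 21810465 to 21810944 (+), had 12.1, 9.53, 7.58 and 8.52 CPM in Vehicle and 16.8, 22.0, 13.9 and 14.9 CPM in AG636. The groups did not overlap, and the log2 ratio was 0.83 (SE 0.20, adjusted p in limma = 0.0217). In limma the call was lost without Vehicle 2 (adjusted p = 0.0578), without Vehicle 3 (0.0793) or without Vehicle 4 (0.0558). Of the 50-base words in the 3′ end of this gene, 88.8% occur in another annotated transcript as well, so its count may be shared with a near-identical copy.

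The copy with most reads was Hist1h2ap. It has a short end, a run of 12 A within its transcript, and a 3′ end whose 50-base words all recur in other transcripts. Hist1h2ap took 18171 of the 62779 counts of the 70 genes (28.9%), with 375.7, 344, 305 and 283.9 CPM in Vehicle and 442.4, 466.9, 299.4 and 270.4 CPM in AG636. AG636 1 and 2 were above the Vehicle range and AG636 4 was below it, and the log2 ratio was 0.15 (95% interval -0.24 to 0.53, adjusted p in limma = 0.617). Hist1h2ao has a run of 12 A as well, and the longest run among the genes described here, 15 A, was in Hist1h2ac.

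Among the 6 genes that rose, the largest log2 ratios were those of the H2B genes, of which 2 of 13 tested rose. Hist2h2be, on chromosome 3 at 96221119 to 96223738 (+), has an annotated end that runs 2192 bases past its coding sequence to a poly-A signal. It had 131, 150, 160 and 178 counts in Vehicle and 442, 469, 544 and 593 counts in AG636, or 19.1, 23.1, 24.8 and 27.1 CPM against 68.7, 74.9, 86.8 and 85.7 CPM. The ratio of the means was 3.36, and the log2 ratio was 1.75 (95% interval 1.46 to 2.05, adjusted p in limma = 0.000336). The call stood in each of the 18 alternative fits, the largest adjusted p being 0.0036.

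Hist1h2bc, on chromosome 13 at 23684199 to 23692908 (+), is spliced in the annotation to a distant 3′ exon and has neither a stem-loop nor a poly-A signal in the windows searched. It had 22.9, 15.4, 20.4 and 16.7 CPM in Vehicle and 77.8, 31.1, 49.1 and 60.6 CPM in AG636. All AG636 samples were higher, though widely spread among themselves, and the log2 ratio was 1.47 (SE 0.28, adjusted p in limma = 0.00788). Summed over 19 H2B genes, the level was 109.4 to 130.5 CPM in Vehicle and 177.7 to 242.8 CPM in AG636, a ratio of the means of 1.84. Hist2h2be and Hist1h2bc gave most of the difference between the H2B means of 115.4 ± 10.13 and 211.9 ± 26.8 CPM.

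**Figure D2:**
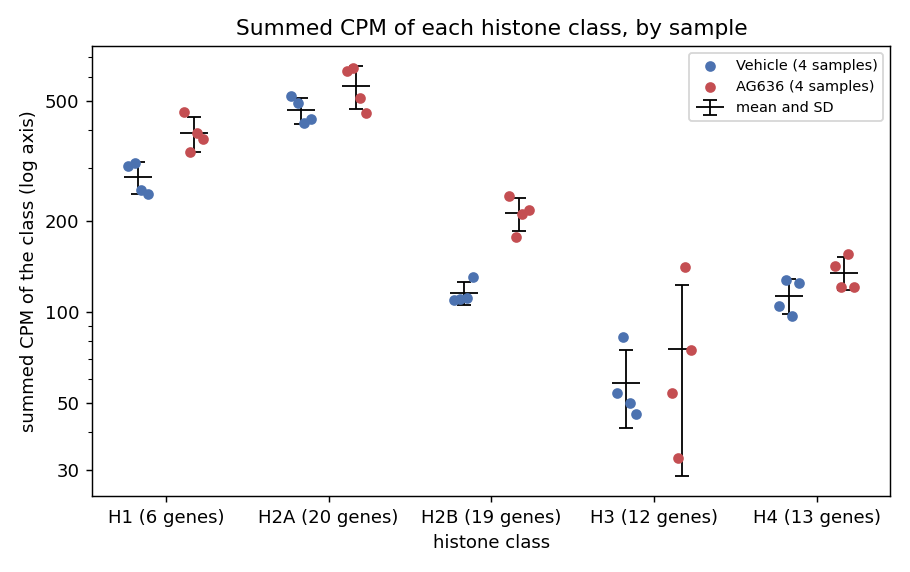
Summed CPM (log axis) of all members of each histone class in each sample, with Vehicle in blue, AG636 in red, and bars for the mean and SD of 4 samples. H1 and H2B show no overlap between the groups, and genes called in these same samples gave most of both differences. H2A, H3 and H4 overlap, and H3 is widely spread in AG636, from 32.7 to 141.2 CPM.

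H3 and H4 form the tetramer at the centre of the nucleosome. None of the 8 tested H3 genes was called (0 by edgeR and DESeq2 as well), and their log2 ratios ran from -0.57 to 0.78. The upper end was Hist2h3b, whose AG636 samples (2.87 to 5.29 CPM) all exceeded its Vehicle samples (1.52 to 2.79 CPM) at 10 to 34 counts a sample (adjusted p in limma = 0.116), and which was named after its values were seen. Of 11 tested H4 genes, Hist1h4i rose. It had 39.2, 46.3, 37.1 and 46.2 CPM in Vehicle and 63.4, 58.7, 68.6 and 51.3 CPM in AG636, so the groups came close without overlapping. Its log2 ratio was 0.52 (SE 0.12, adjusted p in limma = 0.0181), and the call was lost without Vehicle 1 (adjusted p = 0.0626) or without Vehicle 3 (0.0687).

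The other H4 genes carry the same protein, and their log2 ratios lay between -0.57 and 0.54. Summed over 13 genes, H4 overlapped between the groups at 113.2 ± 15.03 CPM in Vehicle and 134.9 ± 17.1 CPM in AG636 (SD, n = 4).

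**Figure D3:**
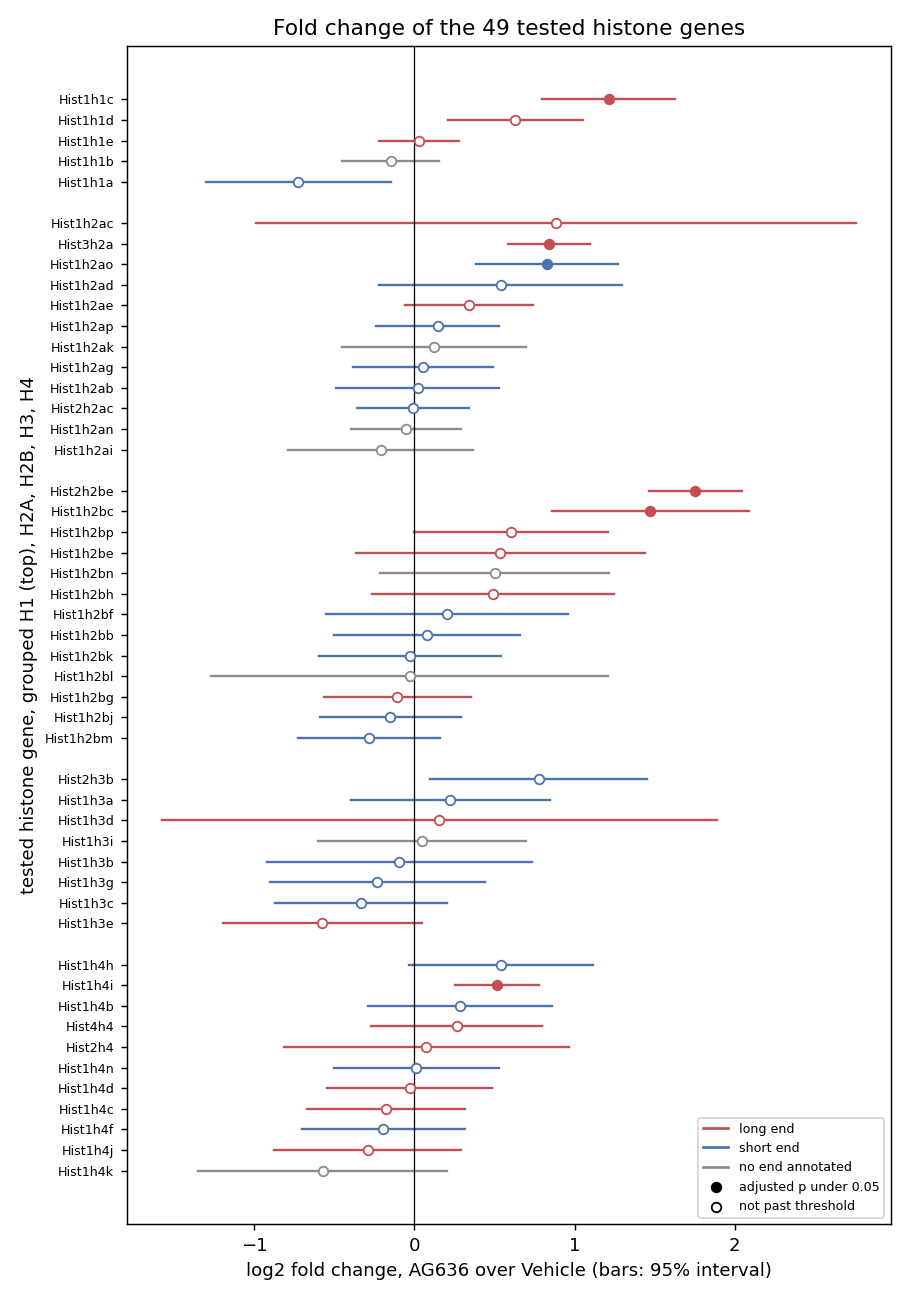
Log2 ratio (AG636 over Vehicle) with its 95% interval for the 49 tested histone genes, grouped by class and coloured by annotated 3′ end, with filled points for an adjusted p under 0.05. The 6 filled points all lie to the right of 0, 5 of them have a long end, and Hist1h2ac and Hist1h3d have the widest intervals.

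By annotated end, 5 of 20 tested genes with a long end rose. With a short end it was 1 of 21 (Hist1h2ao), and with no annotated end 0 of 8. Among all tested genes 5.47% were called higher, and the short-end count is near that share. The difference between these counts was not tested. Median counts per gene, tested or not, were 380, 290 and 80 for long, short and no annotated end. Reads past an annotated end are not counted for the gene. The median log2 ratios were 0.42, 0.02 and -0.04. The summed level of the 28 genes with a long end was 418.9 to 543.6 CPM in Vehicle and 599.1 to 905.4 CPM in AG636. Without the 5 genes that rose, the remaining 23 summed to 282.4 ± 49.98 and 341.6 ± 87.3 CPM, and the groups overlapped. That split was made on the calls in these same samples. The short-end genes summed to 478.4 ± 39.7 and 529.9 ± 120.9 CPM, with overlap, and those with no annotated end to 86.0 ± 9.28 and 82.2 ± 8.48 CPM. A poly-A signal near the annotated end was present in 11 tested genes, of which 4 rose, and absent in 38, of which 2 rose. The 2 of 38 are near the 5.47% called higher among all tested genes, and this difference was not tested either.

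The share of genes with enough counts to test did not follow the annotated ends in a simple way. It was 20 of 28 with a long end, 21 of 24 with a short end and 8 of 18 with none. Long-end genes took 51.1% of the histone counts, short-end genes 41.9% (most of it Hist1h2ap) and genes with no annotated end 7.01%. The 21 genes that were not tested held 575 of the 62779 counts (0.916%), and none had more than 17 counts in a sample. Of these, 3 had no count in any sample (Hist1h2ba, Hist2h3c1 and Hist2h2aa1), and 10 had at most 10 counts in total. For 2 of the 3 genes at 0, Hist2h3c1 and Hist2h2aa1, every 50-base word of the 3′ end is shared with another annotated transcript, as it is for Hist1h2ap, which holds many counts, so their 0 counts are uncertain. Both overlap the annotated Gm20634 on the same strand. A count of 0 allows up to 3 counts, or 0.434 to 0.479 CPM per sample.

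**Figure D4:**
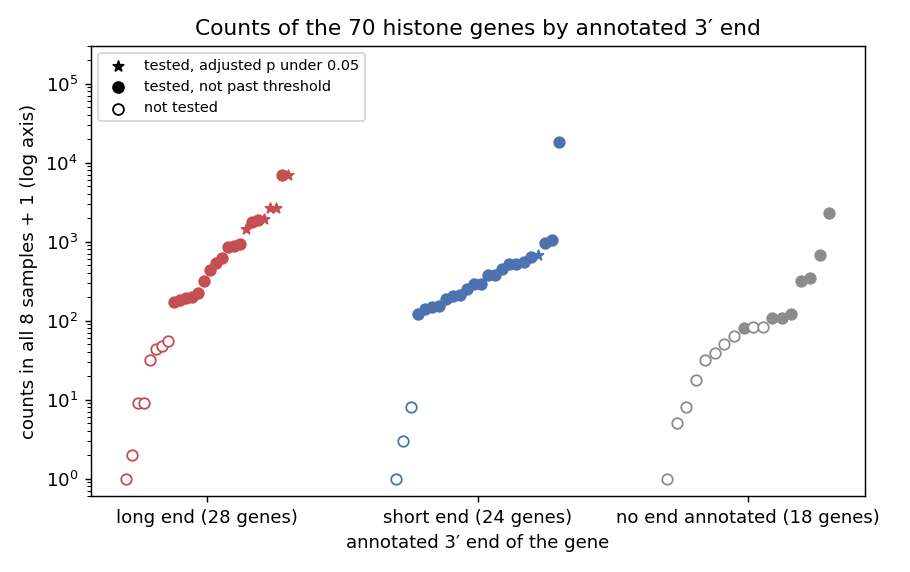
Counts summed over all 8 samples plus 1 (log axis) for each of the 70 histone genes, placed by annotated 3′ end, with open circles for genes not tested, filled circles for tested genes and stars for the 6 genes past the threshold. All 3 kinds of end include a gene with no count and genes with many, and 5 of the 6 stars are among the long ends.

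Many H2A and H2B genes stand back to back, with their start sites facing away from each other across a short shared stretch. There were 14 such pairs with starts at most 500 bases apart. Both genes were tested in 8 of them, 2 of these pairs held 1 gene that rose, and in 0 did both rise. The pair Hist2h2ac and Hist2h2be was the clearest case. Hist2h2ac has a short end, and it had 20.5, 18.8, 17.6 and 23.6 CPM in Vehicle and 23.3, 20.9, 15 and 21.2 CPM in AG636, a log2 ratio of -0.01 (95% interval -0.36 to 0.34), beside 1.75 for its neighbour. There were 0.929 to 1.40 counts of Hist2h2be per count of Hist2h2ac in Vehicle and 2.95 to 5.79 in AG636. The annotation of Hist2h2ac stops 94 bases after its coding sequence, so tailed transcripts that run on past that point could go uncounted. Its log2 ratio therefore cannot show that the amount of its transcript stayed the same. In the other pair, Hist1h2ac was at 0.89 (-0.99 to 2.76) beside 1.47 for Hist1h2bc, and the ratio of their counts overlapped between the groups.

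The stretch between the RefSeq start sites of Hist2h2ac and Hist2h2be is shown because it lies before a gene called higher and one not called. It is taken from the RefSeq promoter of Hist2h2ac (GRCm38.p6) and covers chr3:96220881-96221071, written on the + strand, so that it reads away from Hist2h2ac and towards Hist2h2be. Capitals mark matches, on either strand, to the CCAAT box (CCAAT or ATTGG) and the TATA box (TATAAA or TTTATA), which do not overlap each other here.
Hist2h2ac to Hist2h2be: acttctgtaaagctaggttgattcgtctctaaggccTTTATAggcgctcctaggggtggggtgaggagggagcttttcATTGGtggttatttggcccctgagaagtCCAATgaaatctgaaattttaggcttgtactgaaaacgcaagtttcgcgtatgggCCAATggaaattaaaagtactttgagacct

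In this stretch a TATA box match facing Hist2h2ac stood at base 37 from the left, and CCAAT box matches at bases 79, 107 and 162. RefSeq promoters, from 250 bases before to 50 bases after the start site, were found for 62 of the 70 members, including 4 of the 6 that rose (Hist1h1c, Hist1h2ao, Hist1h4i and Hist3h2a). A CCAAT box was in 53 of the 62 (85.5%) beside 37.4% of all 32851 promoters, in every H1, H2A, H2B and H3 promoter found and in 3 of 12 H4 promoters. A TATA box was in 35 of 62 (56.5%) beside 13.6% of all. The octamer ATTTGCAT, or ATGCAAAT on the other strand, was in 13 of 62 (20.97%) beside 1.74% of all, and these were 7 of 18 H2A and 6 of 16 H2B promoters. Facing pairs share these letters, so their promoters are not independent. The Hist2h2ac promoter was among those with an octamer, which lies outside the stretch shown above. Of the 4 genes that rose, Hist3h2a had an octamer, 3 had a CCAAT box and Hist1h4i a TATA box.

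Several members varied more within a group than between groups. Hist1h3d, the H3 gene with the highest mean CPM (3′ reads, not scaled by length), had 146, 340, 105 and 80 counts in Vehicle samples 1 to 4 and 54, 48, 711 and 309 counts in AG636 samples 1 to 4. That is 12.2 to 52.2 CPM in Vehicle and 7.66 to 113.5 CPM in AG636, and the log2 ratio of 0.16 had a 95% interval of -1.58 to 1.89 (adjusted p in limma = 0.918). Hist1h2ac and the H4 gene Hist2h4, chosen after their values were seen, had their highest values in the same 3 samples, Vehicle 2, AG636 3 and AG636 4. Hist1h2ac had 15.7 CPM in Vehicle 2 and 5.02 to 7.58 CPM in the other Vehicle samples, and 65.4 and 24.9 CPM in AG636 3 and 4 beside 6.69 and 3.35 CPM in AG636 1 and 2. Hist2h4 had 16.3 CPM in Vehicle 2 and 8.45 to 10.2 CPM in the others, and 20.6 and 17.1 CPM in AG636 3 and 4 beside 7.62 and 5.27 CPM in AG636 1 and 2.

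All 3 of these genes have a long end, and they lie in the Hist1 and Hist2 clusters. Cd34, a marker of immature blood cells that was named after its values were seen, had its highest value in AG636 3, at 35.6 CPM, beside 2.43 to 12.6 CPM in the other 7 samples. In AG636 4 it was at 4.05 CPM, the lowest of the AG636 samples, so it shared the pattern only in part. The part of such differences between samples in the histone values was not tested. Hist2h2be shared the pattern only in part. Its 4 AG636 samples all stood between 68.7 and 86.8 CPM, above every Vehicle sample. Within AG636 it was higher in samples 3 and 4 (86.8 and 85.7 CPM) than in 1 and 2 (68.7 and 74.9 CPM). Vehicle 2, at 23.1 CPM, was not its highest Vehicle sample. Hist1h2be, named after its values were seen, had 5.38, 7.34 and 6.79 CPM in Vehicle 2, AG636 3 and AG636 4, beside 2.01 to 3.89 CPM elsewhere.

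**Figure D5:**
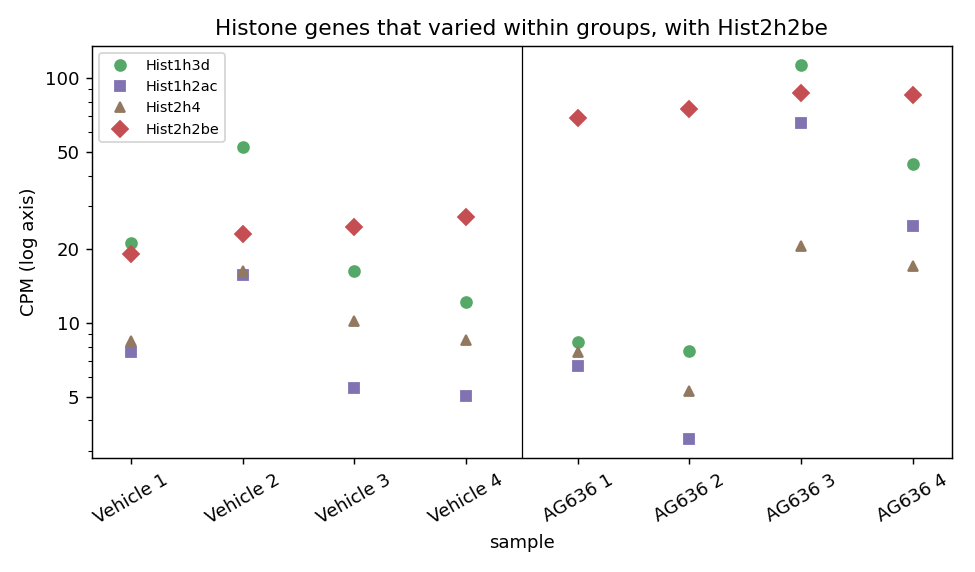
CPM (log axis) of Hist1h3d, Hist1h2ac, Hist2h4 and Hist2h2be in each of the 8 samples, with a line between the Vehicle and the AG636 samples. The first 3 genes are high in Vehicle 2, AG636 3 and AG636 4 and low in the other 5 samples, whereas Hist2h2be separates the groups.

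Variant histones are encoded by genes outside the clusters, and many of them have polyadenylated mRNAs that are not tied to S phase. Of 15 variant histone genes listed, 9 were tested, 2 rose and 0 fell by limma, with a median log2 ratio of 0.20. At an unadjusted p under 0.05 there were 2 lower, while edgeR called 0 lower and DESeq2 1. Among all tested genes, limma called 5.47% higher and 8.49% lower. H2afv, which encodes an H2A.Z form, rose from 335.1 ± 9.93 to 448.9 ± 63.9 CPM, a log2 ratio of 0.41 (adjusted p in limma = 0.0244). Cenpa, the histone H3 variant of centromeres, rose from 256.9 ± 22.6 to 394.5 ± 105.9 CPM (log2 ratio 0.59, adjusted p in limma = 0.0358). Both calls were lost when single samples were left out, without Vehicle 1, 2 or 3 and without AG636 1, and that of Cenpa also without AG636 2.

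Of 25 genes listed for the making and decay of histone mRNA, 24 were tested, 1 rose and 4 fell, with a median log2 ratio of -0.18. All tested genes gave 5.47% higher and 8.49% lower, so the 1 that rose is near the share over all genes. Those that fell included Ncbp2 and Ncbp1, the subunits of the nuclear cap-binding complex, at -0.57 (adjusted p in limma = 0.00447) and -0.45 (0.0131), and Casp8ap2, the histone 3′ processing factor FLASH, at -0.34 (0.0221). Tut7, a uridylyltransferase that marks RNAs for decay, rose from 247.8 ± 19.8 to 365.8 ± 71.9 CPM, or by 0.54 (0.0226). The calls for Casp8ap2 and Tut7 were lost without Vehicle 1, 3 or 4 or without AG636 1, and the 4 genes that fell became 2 without Vehicle 1, 3 or 4. Slbp, the stem-loop binding protein, was at 169.6 ± 10.8 and 143.4 ± 12.7 CPM (log2 ratio -0.24, adjusted p in limma = 0.0904). Npat, the co-activator of the histone gene clusters, was at 55.3 ± 1.80 and 51.8 ± 6.95 CPM (log2 ratio -0.10, adjusted p in limma = 0.558). Slbp and Npat were named after their values were seen.

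Of 21 histone chaperones, all tested, 5 fell and 2 rose, with a median log2 ratio of -0.20. The shares over all tested genes were 8.49% lower and 5.47% higher. Chaf1b, a subunit of the chromatin assembly factor that loads new H3 and H4 behind the replication fork, fell by 0.71 on the log2 scale (adjusted p in limma = 0.011), Nap1l1, an H2A and H2B chaperone, by 0.51 (0.0114), Ipo4, which imports H3 and H4, by 0.93 (0.0135) and Hira, which deposits H3.3, by 0.49 (0.0181). In limma the call for Hira was lost without Vehicle 3 (adjusted p = 0.0594). With single Vehicle samples left out, 0 or 1 chaperone rose and 3 to 5 fell.

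Of 36 S phase genes, all tested, 9 fell and 0 rose by limma, with a median log2 ratio of -0.30. Beside them, 8.49% of all tested genes fell and 5.47% rose. At an unadjusted p under 0.05 there were 19 lower and 1 higher, edgeR called 9 lower and DESeq2 11, and 0 were higher with either. The 9 became 5 without Vehicle 3 or without AG636 1, and 16 without AG636 4. Cdt1, which licenses origins, went from 166.2 ± 8.05 to 101.9 ± 11.1 CPM, a log2 ratio of -0.71 (adjusted p in limma = 0.00214). The helicase subunit genes Mcm5, Mcm4 and Mcm3 fell by 0.66 (adjusted p in limma = 0.00469), 0.50 (0.00565) and 0.51 (0.00694) on the log2 scale. The summed level of the 36 genes was 5057 to 5522 CPM in Vehicle and 3928 to 4902 CPM in AG636, without overlap. The summed level of the histone genes was higher in AG636, but that of the 64 members not called overlapped between the groups (837.5 ± 81.9 and 937 ± 72.2 CPM). Histone counts reflect tailed or internally primed transcripts, so the sums of these lists are unlike measures.

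Markers of the cells in the samples were read beside these values. Kit (152.6 to 252.1 CPM) and Myb (388 to 717 CPM), genes of immature blood cells, were present throughout. The presence of Kit follows from the sort for its product cKit that the study describes, and says nothing further about the cells. The myeloid gene Mpo was at most 4.77 CPM, the pan-leukocyte gene Ptprc 2.01 to 9.25 CPM, and Flt3 and Cd33 under 1 CPM. Genes of the red cell lineage were abundant, with Gata1 at 196.1 to 265.8 CPM, Klf1 at 112.2 to 239.3 CPM and a sum over 14 erythroid markers of 5512 to 9651 CPM in Vehicle and 8335 to 10510 CPM in AG636. Of the remaining leukaemia identity markers, Runx1t1, the partner gene of the fusion, was at 10.7 to 23.3 CPM and Cd34 at 2.43 to 35.6 CPM. The cells are called by their label, with these values beside it. The summed levels of 8 leukaemia identity markers were 573.6 to 711.7 CPM in Vehicle and 658.3 to 959.2 CPM in AG636, with 0 of 6 tested called by limma, edgeR or DESeq2 and 3 higher at an unadjusted p under 0.05.

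Of the 14 erythroid markers, 2 rose and 0 fell by limma, beside 5.47% and 8.49% of all tested genes. It was 4 and 0 at an unadjusted p under 0.05, 3 and 0 in edgeR and 4 and 0 in DESeq2. The globin gene Hbb-bt rose from 25.6 ± 9.19 to 46.6 ± 9.32 CPM (log2 ratio 0.90, adjusted p in limma = 0.0238) and Rhag, a red cell membrane protein, from 113.9 ± 9.49 to 170.7 ± 38.1 CPM (0.56, 0.0346). Both calls were lost when single samples were left out, including Vehicle 2, 3 or 4. Of 10 B cell markers 5 were tested and 1 rose, Cd79a, from 0.609 ± 0.377 to 2.14 ± 0.723 CPM (log2 ratio 1.83, adjusted p in limma = 0.0266), a call lost without Vehicle 1, 2 or 3. Cd79a was near the floor in Vehicle, at 0.291, 0.307, 0.774 and 1.07 CPM. It passed the filter for low counts through its AG636 samples alone, so its call cannot be read as a result about B cells. The B cell markers summed to 7.84 to 16.7 CPM in Vehicle and 12.8 to 27.8 CPM in AG636, the 12 T and NK cell markers to 8.52 to 15.3 and 11.2 to 26.3 CPM, and the 14 mature myeloid markers to 49.8 to 113.7 and 20.1 to 232 CPM, with 0 of 2 and 0 of 8 tested called in the last pair of lists by limma, edgeR or DESeq2, and 0 and 1 at an unadjusted p under 0.05. The part of these other lineages in the histone values was not tested.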

How the data were processed

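Messenger RNA of 8 samples was profiled by 3′ sequencing with reads of 75 bases. The deposited counts were made by the authors, who discarded low-quality reads, trimmed the rest with cutadapt, aligned them to mm10 with HISAT2 (2.0.4 per the labels) and counted reads per gene with featureCounts. The settings for strand, for reads that align to several places and for overlapping genes are not given in the sources used here, which bears on histone genes with near-identical copies. All 8 columns matched the title of a single sample, and no pair of replicates agreed within sampling noise by chi-square.

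The members and gene lists were chosen with earlier results of these data known. Genes were kept by filterByExpr (minimum count 10), scaled by TMM and compared with limma-voom (R 4.3.3 with limma 3.58.1 and edgeR 4.0.16), with group as the only term, two-sided, with Benjamini-Hochberg adjustment over 10911 genes and a threshold of 0.05. limma was used because the study's methods name it. On simulated counts, 70% of 200 genes changed by 1 log2 unit were recovered and 4.11% of calls were false. Genes named are the 3 markers of the group (Hist2h2be, Hist1h1c and Hist3h2a), every member past the threshold, the tested member with the highest mean CPM in each class, the 2 members nearest to the threshold on its far side, and up to 4 genes past the threshold in each other list. Others are said to have been named after their values were seen. Stem-loops, poly-A signals and shared 50-base words were read from GENCODE M21 transcripts, and all 70 symbols matched a current RefSeq symbol. Alternatives were edgeR's quasi-likelihood test, DESeq2 (1.42.0), sample quality weights, RLE factors, library size alone, mitochondrial genes and Gm42418 left out, other filters, a stricter threshold, a replicate block and samples left out.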

Additional observations from a re-analysis of the deposited data

Results flagged for a closer look

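The samples of each group were searched for a value far from the other 3 by Dixon's ratio (above its 95% critical value for 4 samples), in 124 combinations of group with a tested member, a sum over members or the share of counts. There were 6 such values, where chance gives about 6.2. On the log2 CPM scale, Hist1h2ak was at 3.42 in AG636 1 (others 2.44 to 2.46), Hist1h1b at 5.04 in AG636 3 (5.46 to 5.51), Hist1h3i at 1.48 in AG636 1 (1.13 to 1.15), Hist1h3e at 1.03 in AG636 4 (1.87 to 2.01) and Hist1h1a at 3.39 in Vehicle 1 (2.57 to 2.67). The summed level of the H2B genes was 130.5 CPM in Vehicle 4, beside 109.4 to 111.3 CPM in the other Vehicle samples. Hist1h1a is among the members named for standing close to the threshold, and without Vehicle 1 its samples still did not pass.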

How the results depend on the processing

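The 6 members that rose were called in each alternative fit of all 8 samples and in the fit without both Vehicle 4 and AG636 3, and 0 members were lower in any. Hist1h1d was added in 6 of the fits of all 8 samples, among them edgeR and DESeq2, and Hist1h2ae in the fit without Vehicle 4 and AG636 3. With single samples left out, 4 to 7 were higher, and without Vehicle 3 the calls for Hist1h2ao and Hist1h4i were lost. At an adjusted p under 0.01 the 4 that passed were Hist2h2be, Hist3h2a, Hist1h1c and Hist1h2bc. The median log2 ratio of the tested members was -0.003 to 0.201 over these fits. The cause of these differences was not tested.

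Over all genes, 597 were higher and 926 lower. DESeq2 called 955 higher. Library size alone gave 918 higher and 571 lower (the median log2 ratio of all tested genes was 0.064, beside -0.0056 with TMM), and Casp8ap2 was no longer called with it. An adjusted p under 0.01 gave 140 and 295. With single samples left out, 221 to 769 were higher and 467 to 937 lower, the lowest without Vehicle 3. Replicate numbers in the titles recur in both groups, but only 2 of 4 same-numbered pairs deviated together with a correlation over 0.1 (-0.14 to 0.203), so they were not taken as pairs. A replicate block gave 616 higher and 830 lower genes, and the 6 members were called in it as well, while Hbb-bt was not. The depth, at 6120030 to 7162036 counts, left 21 members untested, and 29 of the 43 tested members that were not called had a 95% interval within 1 log2 unit of 0.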
